A study of Mus musculus with 10 samples.

Results

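The imprinted growth genes described here are 10 genes, H19, Cdkn1c, Grb10, Meg3, Rian, Dlk1, Peg3, Plagl1, Mest and Peg10, chosen by symbol from the 55487 genes of a table of estimated read counts. All 10 were found and all 10 had enough counts to be tested. RNA was sequenced from primary pancreatic tumours of KPF mice on a C57BL/6J background, 5 labelled homozygous for a deleted Grem1 allele and 5 labelled Grem1 wild-type. Mice of the labelled-deleted group received tamoxifen at 100 mg/kg of body weight and wild-type mice received peanut oil, each daily for 5 days from 5 weeks of age, so that genotype and tamoxifen cannot be told apart. Mice were 6 to 12 weeks old. The labels do not spell out the KPF driver alleles, which both groups carry, nor the Cre that tamoxifen would act on, nor whether tumours came from separate animals. P-values then measure the spread between these samples, which may be partly technical. Grem1, which encodes a secreted antagonist of bone morphogenetic proteins, stood at 47.6, 110.1, 12.6, 6.83 and 23.7 CPM (the gene's count relative to the scaled total of its library) in tumours 1 to 5 labelled deleted, against 15.7, 43.1, 23.0, 3.97 and 9.48 CPM in wild-type tumours 1 to 5. The groups overlapped, and the log2 fold change of labelled-deleted over wild-type tumours was 1.08 (SE 0.79, edgeR quasi-likelihood test with Benjamini-Hochberg adjusted p = 0.761), or -0.40 without labelled-deleted tumours 1 and 2. The counts cover the whole gene and the labels do not say which exons were deleted, so the tumours are called labelled deleted throughout.

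Total estimated counts ran from 10159891 to 18571519 per library. Labelled-deleted tumour 1 stood apart on the first principal component, at -125.7 against -12.3 to 38 for the other 9 tumours. It held the lowest summed level of all 10 tumours for the fibroblast, epithelial, macrophage and endothelial marker lists and the highest for the list of dividing cells, and its results are given with and without it below. Over 9 markers of intestinal epithelium, labelled-deleted tumour 2 summed to 3470 CPM, against at most 124 CPM in each of the others. All 12 markers of carcinoma and duct epithelium and all 11 of acinar cells were detected in at least 1 tumour.

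An imprinted gene is read mainly from the allele of 1 parent, because the egg and the sperm leave different DNA methylation marks at its control region. Such genes lie in clusters that share a control region, and many act on growth before birth: paternally expressed members such as Igf2 tend to promote it and maternally expressed members such as Cdkn1c and Grb10 to restrain it. In mice most of them are high in fetal organs and placenta and are turned down after birth. In mouse liver Plagl1 was found to act on other imprinted genes, among them Igf2 and H19. Counts per gene do not tell the 2 parental alleles apart, so nothing below speaks of imprinting itself, and in bulk tissue fewer cells of a type and less RNA per cell cannot be told apart.

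Promoters are shown for genes whose levels moved together over tumours (Peg3, Plagl1, Grb10 and Mest) and for Meg3, because methyl marks sit on CG dinucleotides. Meg3 had a negative correlation with each of these genes over all 10 tumours, but a positive one without labelled-deleted tumours 1 and 2. Methylation was not measured, so no window shown is said to carry an imprinting mark. The windows come from RefSeq (GRCm38.p6), which gave 11 windows for 7 of the 10 genes. Each has 250 bases before and 50 after an annotated start, on the gene's strand, 5′ to 3′, with every CG in capitals.
Peg3, chr7:6730370-6730669, minus strand: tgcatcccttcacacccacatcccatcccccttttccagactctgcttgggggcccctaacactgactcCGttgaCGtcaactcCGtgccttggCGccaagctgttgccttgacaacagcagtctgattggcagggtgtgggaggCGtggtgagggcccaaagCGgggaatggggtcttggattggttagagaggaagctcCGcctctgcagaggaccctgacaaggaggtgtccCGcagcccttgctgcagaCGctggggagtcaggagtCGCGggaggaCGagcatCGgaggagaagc
Plagl1, chr10:13090582-13090881, plus strand: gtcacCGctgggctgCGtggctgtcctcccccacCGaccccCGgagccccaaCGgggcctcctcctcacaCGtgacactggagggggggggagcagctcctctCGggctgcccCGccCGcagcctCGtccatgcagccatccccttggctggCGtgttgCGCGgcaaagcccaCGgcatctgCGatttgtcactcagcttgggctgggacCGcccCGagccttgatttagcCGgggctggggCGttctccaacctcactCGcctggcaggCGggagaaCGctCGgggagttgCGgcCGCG
Grb10, chr11:12037371-12037670, minus strand: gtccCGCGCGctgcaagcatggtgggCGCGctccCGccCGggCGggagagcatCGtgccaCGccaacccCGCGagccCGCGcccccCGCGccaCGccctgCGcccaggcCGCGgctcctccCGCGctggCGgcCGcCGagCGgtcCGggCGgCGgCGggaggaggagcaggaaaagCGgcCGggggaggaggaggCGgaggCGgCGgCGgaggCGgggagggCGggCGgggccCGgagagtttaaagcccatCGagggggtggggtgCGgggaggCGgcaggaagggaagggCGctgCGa
Mest, chr6:30737803-30738102, plus strand: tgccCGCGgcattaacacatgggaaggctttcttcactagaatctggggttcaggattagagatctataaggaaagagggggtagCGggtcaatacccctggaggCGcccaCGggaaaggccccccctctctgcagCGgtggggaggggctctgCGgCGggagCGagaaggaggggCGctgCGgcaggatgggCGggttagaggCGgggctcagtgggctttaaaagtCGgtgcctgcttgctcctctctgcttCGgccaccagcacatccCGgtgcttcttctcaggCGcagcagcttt
Meg3, chr12:109540746-109541045, plus strand: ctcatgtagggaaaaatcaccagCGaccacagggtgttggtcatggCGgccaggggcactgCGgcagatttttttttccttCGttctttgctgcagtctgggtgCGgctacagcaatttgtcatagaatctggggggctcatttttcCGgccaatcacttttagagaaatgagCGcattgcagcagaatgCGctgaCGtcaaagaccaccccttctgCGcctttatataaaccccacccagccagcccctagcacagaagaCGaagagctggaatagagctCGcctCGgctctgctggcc

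The Grb10 window held 45 CG, and 98.1% of 32851 mouse promoter windows held fewer. Plagl1 held 26 CG, Mest 17, and Peg3 and Meg3 13 each, against a median of 7 over all windows. The other start of Grb10 held 9 CG and the window of Rian held 0. TGCCGC, the motif of the imprint-protecting zinc finger protein ZFP57, was searched on both strands. It lay in 5 of the 11 windows, those of Grb10, Meg3, Plagl1 and 2 overlapping windows of Mest, against 11.6% of all windows. The motif holds a CG, and those 5 windows each held more CG than the median window. These shares therefore do not compare windows of like CG content. GGGGCCCC, the palindromic motif bound by PLAGL1, lay in the Peg3 window alone of the 11, against 1.08% of all windows. These matches describe letters in the windows and are not evidence of binding.

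Levels per kilobase (CPM per kb of all annotated exons, GENCODE M21 on GRCm38) differed widely between the genes. H19 averaged 342 CPM per kb over the 10 tumours, above 99.3% of the 16565 tested genes, and led the next gene, Cdkn1c, in 10 of 10 tumours, by 3.71 ± 0.83 on the log2 scale (SD, n = 10). Cdkn1c averaged 23.8 CPM per kb and led Mest, at 14.9, in 9 of 10 tumours. Mest, Grb10 at 14.6 and Meg3 at 14.5 CPM per kb were not ordered beyond their spread, since Mest led Grb10 in 3 of 10 tumours and Grb10 led Meg3 in 6 of 10. Meg3 led Peg3, at 8.64 CPM per kb, in 9 of 10 tumours. Below them the neighbours Peg3 and Rian (7.13 CPM per kb), Rian and Plagl1 (4.9), Plagl1 and Dlk1 (2.95), and Dlk1 and Peg10 (2.38) traded places in between 2 and 5 of the 10 tumours. The median of all tested genes was 5.27 CPM per kb.

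**Figure D1:**
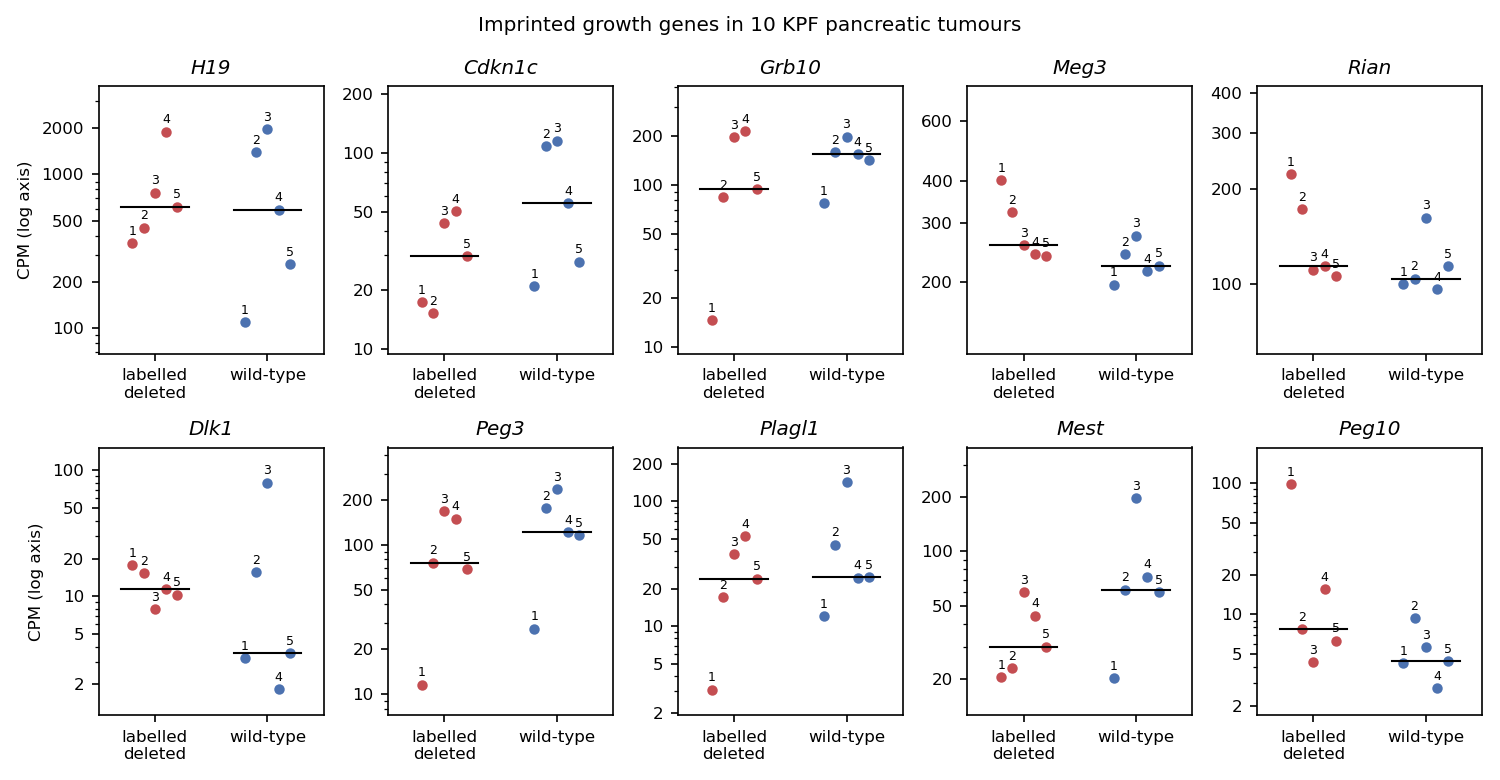
Level of each imprinted growth gene in CPM (log axis) in the 5 labelled-deleted tumours (left of each panel) and the 5 wild-type tumours (right), 1 point per tumour. The 2 groups overlap for each of the 10 genes, and Peg10 has 1 labelled-deleted tumour at 98.1 CPM with the other 9 at 2.75 to 15.5 CPM.

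Among the maternally expressed genes, H19 is a noncoding RNA that shares enhancers with Igf2 (chr7:142575529-142578143, minus strand, 3 exon blocks). H19 stood at 356, 450.3, 761, 1896 and 619 CPM in tumours 1 to 5 labelled deleted, against 109.6, 1395, 1979.9, 591 and 259.8 CPM in wild-type tumours 1 to 5. Labelled-deleted tumour 4 and wild-type tumours 2 and 3 were high, wild-type tumour 1 was lowest, and the range of the wild-type tumours enclosed that of the labelled-deleted ones. Cdkn1c, an inhibitor of cyclin-dependent kinases that arrests the cell cycle (chr7:143458339-143461050, minus strand), stood at 17.4, 15.2, 43.8, 50.5 and 29.8 CPM in labelled-deleted tumours, against 20.9, 108, 115, 55.5 and 27.9 CPM in wild-type ones. Wild-type tumours 2 and 3 were highest, as they were for H19 in that group, and the groups overlapped. Grb10, an adaptor that binds the activated insulin and IGF1 receptors and dampens their signal (chr11:11930508-12038683, minus strand), stood at 14.6, 83.6, 196, 213 and 94.0 CPM in labelled-deleted tumours, against 77.0, 158, 197, 154 and 141 CPM in wild-type tumours. Labelled-deleted tumour 1 was far below the other 9, and of the rest tumour 4 lay above the wild-type range and the others within it.

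Meg3 and Rian are noncoding RNAs made from the maternal allele of a cluster on chromosome 12 (Meg3 at chr12:109541001-109571726 and Rian, a host of small nucleolar RNAs, at chr12:109603940-109661716, both on the plus strand). Meg3 stood at 401, 323, 258, 242 and 239.6 CPM in labelled-deleted tumours, against 197, 242, 275, 216 and 224 CPM in wild-type tumours. Rian stood at 222, 172, 111, 114 and 106 CPM in labelled-deleted tumours, against 100, 104, 162, 96.5 and 114 CPM in wild-type tumours. Labelled-deleted tumours 1 and 2 were the highest for both genes, above each wild-type tumour, and the other 3 lay within the wild-type range. The ratio of Meg3 to Rian CPM lay between 1.69 and 2.33 in every tumour, with a median of 2.12 in labelled-deleted tumours and 1.97 in wild-type tumours (exact two-sided permutation p = 0.794).

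Of the paternally expressed genes, Dlk1, a transmembrane protein related to Notch ligands and a marker of progenitor cells, lies in the same cluster as Meg3 and Rian (chr12:109452823-109463336, plus strand). Dlk1 stood at 17.6, 15.3, 7.88, 11.4 and 10.3 CPM in labelled-deleted tumours, against 3.22, 15.6, 80.1, 1.83 and 3.53 CPM in wild-type tumours. The labelled-deleted tumours lay close together inside the wild-type range, where tumour 3 was far above the next and 3 tumours were below all labelled-deleted ones. Their medians were 11.4 CPM in labelled-deleted tumours and 3.53 CPM in wild-type tumours, while the means, 12.5 ± 3.92 and 20.9 ± 33.6 CPM (SD, n = 5 each), had the opposite order.

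Peg3, a zinc finger protein tied to growth and maternal behaviour in mice (chr7:6703892-6730431, minus strand), stood at 11.6, 76.0, 168, 150 and 68.8 CPM in labelled-deleted tumours, against 27.4, 176, 236, 121 and 116 CPM in wild-type tumours. Plagl1, a zinc finger transcription factor that can halt the cell cycle (chr10:13060504-13131694, plus strand), stood at 3.11, 17.0, 37.9, 52.5 and 24.0 CPM in labelled-deleted tumours, against 12.1, 45.1, 142, 24.5 and 24.7 CPM in wild-type tumours. Tumour 1 was the lowest of both groups for both genes, wild-type tumour 3 was the highest, and the groups overlapped. Mest, a membrane protein of the endoplasmic reticulum with a hydrolase fold that is linked to fat tissue growth (chr6:30723547-30748465, plus strand), stood at 20.4, 22.8, 59.6, 44.3 and 30.0 CPM in labelled-deleted tumours, against 20.2, 61.7, 196, 72.8 and 59.7 CPM in wild-type tumours. All 5 labelled-deleted tumours lay below 4 of the 5 wild-type tumours, and wild-type tumour 1 lay below them all. Peg10, a gene derived from a retrotransposon and needed to form the mouse placenta (chr6:4747306-4760517, plus strand), stood at 98.1, 7.73, 4.35, 15.5 and 6.31 CPM in labelled-deleted tumours, against 4.25, 9.38, 5.62, 2.75 and 4.44 CPM in wild-type tumours. Labelled-deleted tumour 1 was alone far above the rest. Of the other labelled-deleted tumours, tumour 4 lay above the wild-type range and the others within it.

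The spread over all 10 tumours split the genes. For 8 of the 10, all but Meg3 and Rian, the SD of log2 CPM over the 10 tumours was 1.02 to 1.52, larger than that of at least 93.0% of tested genes. Meg3 had an SD of 0.30, the median over tested genes, and Rian one of 0.41. The highest tumour exceeded the lowest 45.7 times for Plagl1, 43.7 times for Dlk1, 35.7 times for Peg10 and 20.4 times for Peg3, but 2.03 times for Meg3 and 2.31 times for Rian. Igf2, the paternally expressed growth factor next to H19, spread further, by 103 times and an SD of 2.28, above 99.4% of tested genes. The lowest raw counts were 30 for Dlk1, 35 for Plagl1 and 44 for Peg10, so counting error was small beside these ranges. For Grb10 and Peg10 much of the range came from labelled-deleted tumour 1. Grb10 was at 14.6 CPM there and at 77.0 to 213 CPM in the other tumours. Peg10 was at 98.1 CPM there and at 2.75 to 15.5 CPM in the other tumours.

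**Figure D2:**
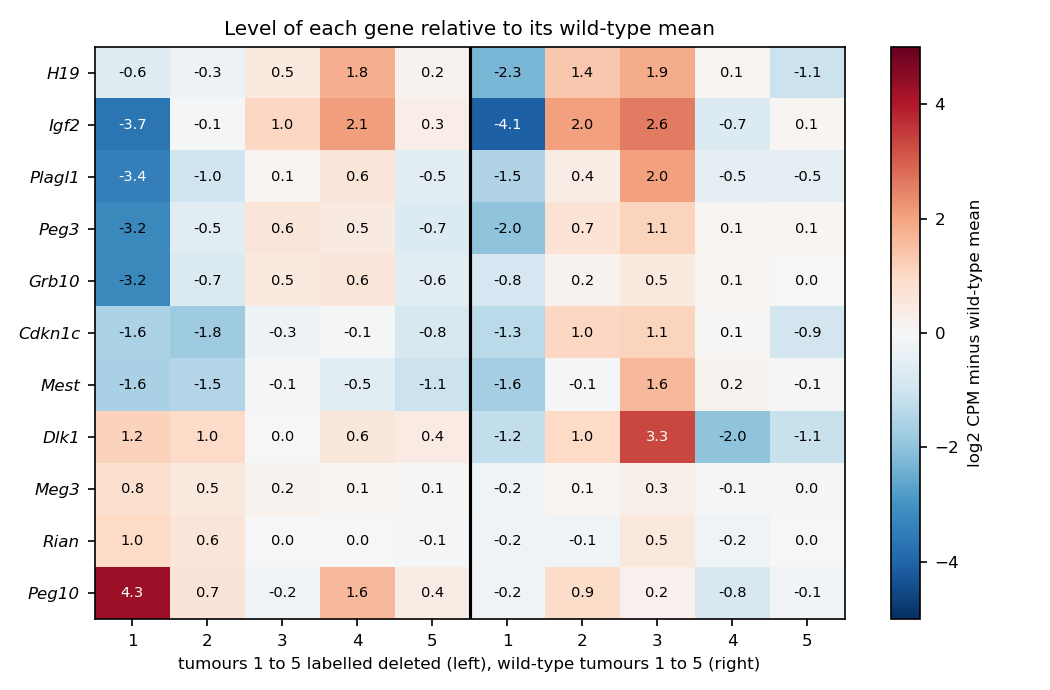
Colour gives log2 CPM of each gene minus the mean of its wild-type tumours, for labelled-deleted tumours 1 to 5 (left) and wild-type tumours 1 to 5 (right), with a line between the groups. Peg3, Plagl1 and Grb10 are lowest in labelled-deleted tumour 1, at -3.23, -3.40 and -3.24, where Peg10 is highest, at 4.29.

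Labelled-deleted tumour 1 was the lowest of the 10 tumours for 3 of the 10 genes (Peg3, Plagl1 and Grb10) and the highest for 3 (Meg3, Rian and Peg10). Over all tested genes this tumour was the lowest for 29.4% and the highest for 27.9%, so both shares are near those of genes at large.

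Peg3, Plagl1, Grb10, Cdkn1c, Mest and H19 moved together over tumours to differing degrees, and these 6 genes are called the block below, a set named after its values were seen. Of the 45 pairs among the 10 genes, 10 had a Pearson correlation of log2 CPM past an adjusted p of 0.05 (permutation test, Benjamini-Hochberg over the 45), all 10 positive, and 9 of them also did so in exact tests without labelled-deleted tumour 1. Within the block 9 of 15 pairs passed, but H19 passed by r with Cdkn1c alone. Over the 9 tumours without labelled-deleted tumour 1, 12 pairs passed, among them 3 that had not: H19 with Peg3 (r = 0.85, exact permutation, adjusted p = 0.0260), H19 with Plagl1 (r = 0.86, exact permutation, adjusted p = 0.0260) and Mest with Grb10 (r = 0.78, exact permutation, adjusted p = 0.0379). Spearman's rho passed for 16 pairs. Groups were pooled in these correlations, and every value shares the same libraries. Peg3 and Plagl1 had r = 0.93 (permutation p = 4e-05, adjusted p = 0.00112) and rho = 0.94 (permutation p = 0.00027, adjusted p = 0.00607). Their r was 0.86 without the 2 tumours farthest from the Peg3 median, and 0.85 without labelled-deleted tumour 1 (exact permutation, adjusted p = 0.0262). Peg3 and Grb10 had r = 0.94 (permutation p = 5e-05, adjusted p = 0.00112), rho = 0.90 (permutation p = 0.00072, adjusted p = 0.0108), r = 0.90 without the 2 farthest tumours and 0.89 without labelled-deleted tumour 1 (exact permutation, adjusted p = 0.0210).

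Plagl1 and Grb10 had r = 0.90 (permutation p = 0.0001, adjusted p = 0.00146) and rho = 0.96 (permutation p = 9e-05, adjusted p = 0.00405), with r = 0.90 without the 2 farthest tumours and 0.81 without labelled-deleted tumour 1. Cdkn1c and Mest, on chromosomes 7 and 6, had r = 0.86 (permutation p = 0.00099, adjusted p = 0.00891), rho = 0.85 (permutation p = 0.00291, adjusted p = 0.0169), r = 0.84 without the 2 farthest tumours and also 0.84 without labelled-deleted tumour 1. The other 4 pairs of the block that held without labelled-deleted tumour 1, Plagl1 with Mest and with Cdkn1c and Peg3 with Mest and with Cdkn1c, had r between 0.77 and 0.83. H19 and Cdkn1c had r = 0.77 (permutation p = 0.00835, adjusted p = 0.0376), rho = 0.79 (permutation p = 0.00879, adjusted p = 0.0283) and r = 0.73 without the 2 farthest tumours, but without labelled-deleted tumour 1 the same r of 0.77 missed the threshold (exact permutation, adjusted p = 0.051).

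Meg3 and Rian, outside the block, had r = 0.94 (permutation p = 0.00013, adjusted p = 0.00146), rho = 0.83 (permutation p = 0.00523, adjusted p = 0.0205), r = 0.73 without the 2 farthest tumours and 0.87 without labelled-deleted tumour 1 (exact permutation, adjusted p = 0.0260). Some values of Peg10, and that of Meg3 with Grb10, turned on labelled-deleted tumour 1. Grb10 and Peg10 had r = -0.74 over 10 tumours and 0.19 over 9, Meg3 and Grb10 had -0.65 over 10 and 0.07 over 9, and Meg3 and Peg10 had 0.79 over 10 and 0.38 over 9. None of those 3 passed the adjusted threshold in either set. Without labelled-deleted tumours 1 and 2, the farthest from the Meg3 median, r of Meg3 was 0.82 with Peg3 and 0.89 with Plagl1. It was 0.71 with Grb10, 0.70 with Mest and 0.68 with Cdkn1c, but -0.32 with H19. The values of Meg3 without both tumours were not tested. Dlk1 and Peg10 had rho = 0.77 over 10 tumours (permutation, adjusted p = 0.0338) and 0.77 over 9 (exact permutation, adjusted p = 0.0642). Dlk1, in the same cluster as Meg3 and Rian, ranked the tumours much as Meg3 did, with rho = 0.84 (permutation p = 0.00371, adjusted p = 0.0169) and 0.82 without labelled-deleted tumour 1 (exact permutation, adjusted p = 0.0441). Its r with Meg3 was 0.59 over 10 tumours and did not pass (permutation p = 0.0753, adjusted p = 0.147), was 0.84 without the 2 tumours farthest from the Meg3 median, and was 0.69 without labelled-deleted tumour 1. The sizes differed, since Dlk1 spanned 43.7 times and Meg3 2.03 times over the tumours.

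**Figure D3:**
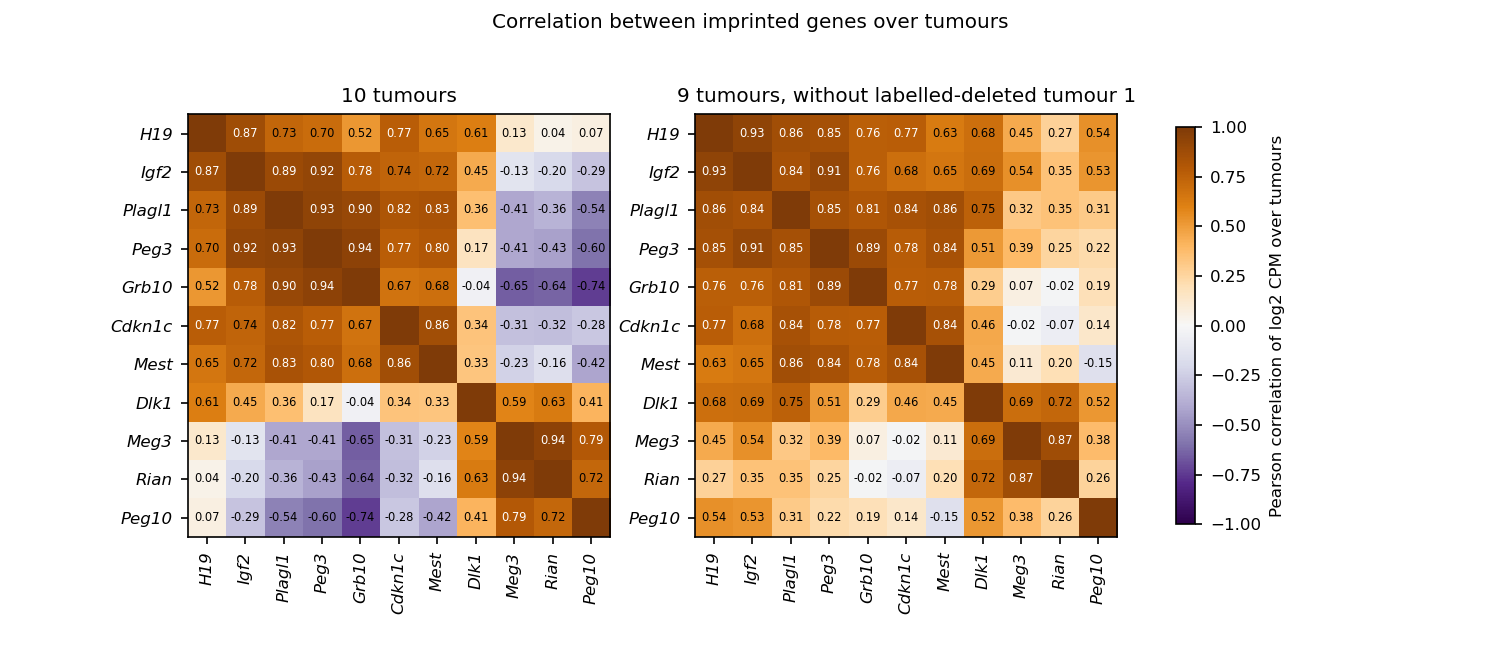
Pearson correlation of log2 CPM between the imprinted growth genes and Igf2 over all 10 tumours (left) and over 9 tumours without labelled-deleted tumour 1 (right). The block of H19, Peg3, Plagl1, Cdkn1c, Mest and Grb10 stays positive in both panels, while the negative value of Grb10 with Peg10, -0.74, becomes 0.19 over 9 tumours.

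Igf2 moved with the block. It stood at 22.8, 270.3, 593, 1230.3 and 364 CPM in labelled-deleted tumours, against 17.1, 1201, 1749, 180 and 313 CPM in wild-type tumours. Tumour 1 of each group was far below every other tumour, and the groups overlapped. In 10 pairs of Igf2 with the imprinted growth genes, 6 passed by r (permutation test, Benjamini-Hochberg over the 10), namely those of the block, and 4 of these passed without labelled-deleted tumour 1. Igf2 and H19, expressed from opposite parental alleles, had r = 0.87 (permutation p = 0.00059, adjusted p = 0.00203), rho = 0.92 (permutation p = 0.00045, adjusted p = 0.00225), r = 0.87 without the 2 farthest tumours and 0.93 without labelled-deleted tumour 1 (exact permutation, adjusted p = 0.00526). Igf2 and Peg3 had r = 0.92, Igf2 and Plagl1 0.89, and Igf2 and Grb10 0.78, with adjusted permutation p of 0.00203, 0.0008 and 0.0115. Cdkn1c and Mest, with r = 0.74 and 0.72 to Igf2 over 10 tumours, did not pass over 9 (r = 0.68 and 0.65, exact permutation, adjusted p = 0.0735 and 0.0908). The ratio of Igf2 to H19 CPM was 0.064 in labelled-deleted tumour 1 and 0.156 in wild-type tumour 1, and 0.305 to 1.21 in the other 8.

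**Figure D4:**
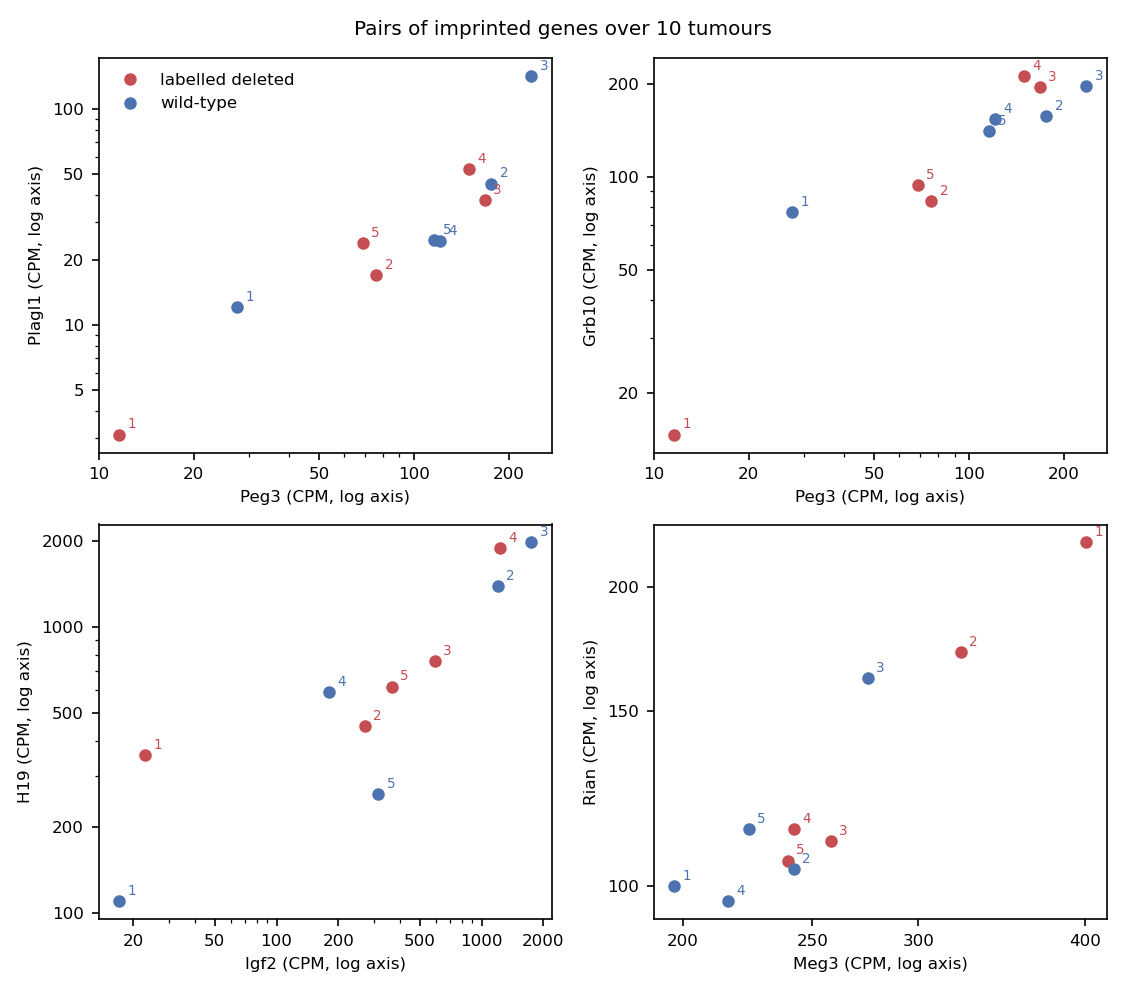
Each panel plots 1 pair of genes in CPM (both axes logarithmic), 1 point per tumour, with labelled-deleted and wild-type tumours in different colours. Peg3 with Plagl1, Peg3 with Grb10 and Igf2 with H19 run along 1 line through both groups (r = 0.93, 0.94 and 0.87), and Meg3 with Rian does so over a narrower range (r = 0.94).

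Genes that share a cluster with an imprinted growth gene were compared with it in 18 pairs, a list drawn up after the data were seen. By r, 7 pairs passed (permutation test, Benjamini-Hochberg over the 18), and the same 5 passed with and without labelled-deleted tumour 1. Zim1, a maternally expressed zinc finger gene 7.44 kb from Peg3, stood at 0.623, 7.59, 53.9, 56.7 and 12.8 CPM in labelled-deleted tumours, against 1.02, 78.1, 151, 29.6 and 21.3 CPM in wild-type tumours. Its r with Peg3 was 0.98 (permutation p = 1e-05, the smallest that the resampling can give, adjusted p = 0.00018), its rho 0.98 (permutation p = 2e-05, adjusted p = 0.00036), and r was 0.97 without the 2 farthest tumours and 0.99 without labelled-deleted tumour 1 (exact permutation, adjusted p = 0.000546). Usp29, a paternally expressed ubiquitin protease gene 0.146 kb from Peg3, had r = 0.82 with it (permutation p = 0.00078, adjusted p = 0.00281), rho = 0.89 (permutation p = 0.00113, adjusted p = 0.00508), r = 0.88 without the 2 farthest tumours and 0.90 without labelled-deleted tumour 1.

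In the cluster of Mest, Klf14, a maternally expressed transcription factor gene 208 kb away, stood at 0, 0.071, 2.71, 2.03 and 1.05 CPM in labelled-deleted tumours, against 0.0786, 3.46, 15.9, 2.08 and 1.61 CPM in wild-type tumours. Klf14 and Mest had r = 0.95 (permutation p = 7e-05, adjusted p = 0.00063), rho = 0.88 (permutation p = 0.00154, adjusted p = 0.00554), r = 0.91 without the 2 farthest tumours and 0.94 without labelled-deleted tumour 1. In labelled-deleted tumours 1 and 2 and wild-type tumour 1, Klf14 was at or near 0 CPM. Its log2 CPM there rests largely on the prior count of 2 described below. Copg2, which encodes a coat protein of transport vesicles, had r = 0.91 with Mest (permutation p = 0.00023, adjusted p = 0.00138), rho = 0.90 (permutation p = 0.00097, adjusted p = 0.00508), r = 0.86 without the 2 farthest tumours and 0.92 without labelled-deleted tumour 1. Copg2 and Mest share 912 exon bases on opposite strands, and since no source used here says whether counting used strand, reads of the 2 genes in that stretch cannot be told apart. H19 and Igf2, 72.6 kb apart, are the fifth such pair. Cdkn1c passed with no tested gene of its cluster, which does not show that they are unrelated. With Kcnq1ot1, Phlda2, Slc22a18, Ascl2, Kcnq1 and Tssc4 its r was -0.04 to 0.51 over 10 tumours. Without the 2 tumours farthest from the Cdkn1c median, r was 0.78 with Kcnq1ot1, against 0.03 over 10, and -0.11 to 0.50 with the others. Meg3 with Mirg, r = 0.79 over 10 tumours, and Peg10 with Asb4, r = -0.82, were 0.45 and -0.46 without labelled-deleted tumour 1 and no longer passed (exact permutation, adjusted p = 0.399 each).

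Between the groups, no imprinted growth gene was called different, which does not show that the levels were equal. In the edgeR quasi-likelihood test with Benjamini-Hochberg adjustment over all 16565 tested genes, 0 of the 10 passed an adjusted p of 0.05, where 0.0% of all genes did, and DESeq2 called 7 genes (0.0224% of those it tested), none of these 10. At an unadjusted p under 0.05, edgeR picked 2 of the 10, Peg10 with a higher and Mest with a lower value in labelled-deleted tumours, against 5.93% of all tested genes, 3.47% higher and 2.46% lower. Positive log2 fold changes mean a higher level in labelled-deleted tumours. They were positive for 3 of the 10 genes and negative for 7, with a median of -0.39, against a median of 0.027 with 55.1% positive and 44.9% negative over all genes. Without labelled-deleted tumour 1 the split was 5 and 5 with a median of -0.11, where 48.1% of all genes were negative, and without wild-type tumour 3 it was 6 positive and 4 negative with a median of 0.22. It was 5 and 5 with limma-voom (median -0.18) and on the deposited log2 values (median -0.13), and 6 positive and 4 negative with a block by tumour ID number (median 0.06). Labelled-deleted tumours 1 and 4 are the only tumours of their ID numbers, 25 and 39. They therefore add nothing to the group difference in the fit with that block. The groups separated completely for none of the 10 genes, against 0.93% of tested genes.

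Of the genes with positive values, Peg10 had a median of 7.73 CPM in labelled-deleted tumours and 4.44 CPM in wild-type tumours, and a log2 fold change of 2.32 (SE 0.87, edgeR adjusted p = 0.759). Without labelled-deleted tumour 1 it was 0.69 (SE 0.42, adjusted p = 0.909). With the block by tumour ID number, to which labelled-deleted tumours 1 and 4 add nothing, it was 0.31 (SE 0.38). Meg3 averaged 293 ± 69.4 CPM in labelled-deleted tumours and 231 ± 29.3 CPM in wild-type tumours (SD, n = 5 each), with a log2 fold change of 0.34 (SE 0.16, adjusted p = 0.759), or 0.20 without labelled-deleted tumour 1. Rian averaged 145 ± 51.0 CPM in labelled-deleted tumours and 115 ± 27.1 CPM in wild-type tumours, with 0.33 (SE 0.24, adjusted p = 0.761), or 0.12 without that tumour. Among the negative values, Mest averaged 35.4 ± 16.4 CPM in labelled-deleted tumours and 82.1 ± 66.8 CPM in wild-type tumours, with a log2 fold change of -1.21 (SE 0.53, adjusted p = 0.759), or -0.60 without wild-type tumour 3. Cdkn1c averaged 31.3 ± 15.6 CPM in labelled-deleted tumours and 65.6 ± 44.2 CPM in wild-type tumours, with -1.06 (SE 0.53, adjusted p = 0.759). Plagl1 had a log2 fold change of -0.88 (SE 0.76), Dlk1 -0.74 (SE 0.92), Peg3 -0.51 (SE 0.66), Grb10 -0.27 (SE 0.55) and H19 -0.09 (SE 0.73), with edgeR adjusted p from 0.784 to 0.981. Dlk1 was positive, at 1.06, without wild-type tumour 3, and limma-voom gave Dlk1 0.72 and H19 0.31 over all 10 tumours. Exact permutation tests of mean log2 CPM for the 10 genes gave p from 0.0873 (Meg3) to 0.714 (H19), where 5 against 5 tumours allows no less than 0.00794.

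**Figure D5:**
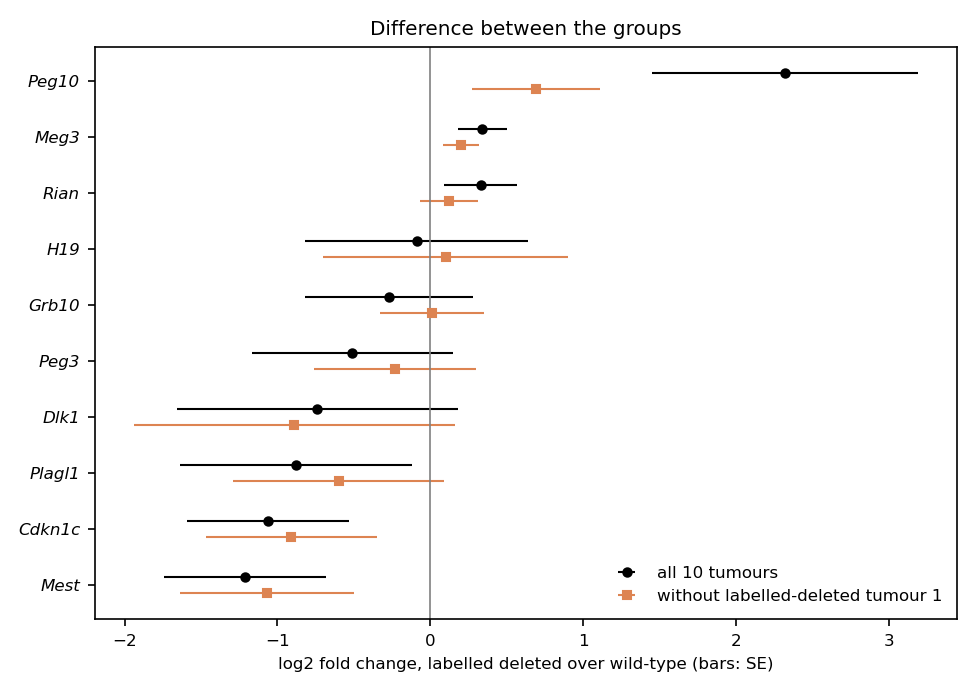
Log2 fold change of labelled-deleted over wild-type tumours for each of the 10 imprinted growth genes, with bars of 1 SE, in all 10 tumours (black circles) and without labelled-deleted tumour 1 (orange squares). Peg10 moves most between the fits, from 2.32 to 0.69, and no gene of the plot passed an adjusted p of 0.05 in either.

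The wider imprinted gene set gave the same picture of no called difference. Of 19 other genes in the same clusters, 18 had enough counts, of which 5 had positive and 13 negative log2 fold changes (median -0.29), and 0 passed. Of 24 imprinted genes at other loci, 20 were tested, with 12 positive and 8 negative values (median 0.02), and 0 passed. The smallest p of both lists was that of Asb4, a subunit of ubiquitin ligases, at 2.31, 3.9, 3.37, 3.31 and 3.94 CPM in labelled-deleted tumours, against 5.35, 4.83, 4.62, 4.64 and 4.74 CPM in wild-type tumours. All 5 labelled-deleted tumours lay below all 5 wild-type ones, with a log2 fold change of -0.52 (SE 0.18, edgeR p = 0.0165, adjusted p = 0.759) and an exact permutation p of 0.00794, the smallest the design allows. Any gene with fully separated groups reaches that p, which is unadjusted for a gene picked by its small p. The groups separated for 1 of the 18 cluster genes and 0 of the 20 others, against 0.93% of all tested genes. Ube3a, a ubiquitin ligase expressed from the maternal allele in neurons, averaged 96.8 ± 9.81 CPM in labelled-deleted tumours and 82.0 ± 7.03 CPM in wild-type tumours (SD, n = 5 each), with a log2 fold change of 0.24 (SE 0.09, edgeR adjusted p = 0.759). Igf2 had a log2 fold change of -0.48 (SE 1.09), Igf2r, the receptor that clears IGF2, 0.24 (SE 0.16) and Gnas, which encodes a G protein subunit, 0.03 (SE 0.10), with edgeR adjusted p of 0.919, 0.759 and 0.941. Rasgrf1, Rtl1, Copg2 and Gatm, which had the next smallest p, had log2 fold changes of 1.04, 0.52, -0.39 and -0.55, each with an edgeR adjusted p of 0.759. Without labelled-deleted tumour 1 Rasgrf1 was 0.32, Gatm -0.36 and Igf2r 0.11, and without wild-type tumour 3 Copg2 was -0.15.

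Marker genes of cell types varied between tumours too, most of all those of acinar cells. The 11 acinar markers summed to 84.7 to 12627 CPM in labelled-deleted tumours and 24.7 to 14409 CPM in wild-type tumours. The 15 islet markers summed to 105 to 280.2 CPM in labelled-deleted tumours and 22.6 to 407 CPM in wild-type tumours, and the 8 lymphocyte markers to 2.49 to 255 CPM in labelled-deleted tumours and 3.01 to 88.2 CPM in wild-type tumours. All 8 lymphocyte markers (median 0.98) and all 13 markers of dividing cells (median 0.51) had positive log2 fold changes. All 10 endothelial (median -0.40), all 12 epithelial (-0.48) and all 11 macrophage markers (-0.47) had negative ones. Of the fibroblast markers 2 were positive and 10 negative (median -0.29), of the tested islet markers 6 and 6, and of the acinar markers 6 and 5. These values include labelled-deleted tumour 1, whose markers of dividing cells summed to 1373 CPM, against 324 to 662 CPM in the other labelled-deleted tumours. They also include labelled-deleted tumour 3, whose lymphocyte markers summed to 255 CPM, against 2.49 to 31.7 CPM in the other labelled-deleted tumours. The endothelial markers summed to 227 to 1015 CPM in labelled-deleted tumours and 502 to 975 CPM in wild-type tumours. The 12 fibroblast markers summed to 8214 to 28048 CPM in labelled-deleted tumours, against 15642 to 28504 CPM in wild-type tumours, and all 12 had counts enough to be tested. The 12 epithelial markers summed to 1971 to 5608 CPM in labelled-deleted tumours and 5341 to 6494 CPM in wild-type tumours. The 11 macrophage markers summed to 1784 to 4632 CPM in labelled-deleted tumours and 3402 to 5821 CPM in wild-type tumours, and the 13 markers of dividing cells to 324 to 1373 CPM in labelled-deleted tumours and 375 to 555 CPM in wild-type tumours. None of these 8 lists had a gene at 0 in all tumours. Over 100 pairs of an imprinted growth gene and a marker list, 3 passed by r (permutation test, Benjamini-Hochberg over the 100): Rian with dividing cells (r = 0.93, adjusted p = 0.0230), Meg3 with macrophages (r = -0.87, adjusted p = 0.0230) and Peg10 with macrophages (r = -0.83, adjusted p = 0.0230). By rho 0 passed, the 3 having rho of 0.75, -0.84 and -0.88, and without the 2 farthest tumours their r was 0.77, -0.68 and -0.85. Over the 9 tumours without labelled-deleted tumour 1 the r values were 0.89, -0.80 and -0.84, and 0 passed (exact permutation, adjusted p = 0.269 each). Grb10 with fibroblasts had r = 0.91 over 10 tumours and 0.60 over 9 and passed in neither. The part of cell content in the levels above was not tested.

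The tested genes most like each imprinted growth gene, by Pearson correlation of log2 CPM over the 10 tumours among 16151 genes of at least 1 CPM, came mostly from outside the set. Those of Grb10 were Gli1 (r = 0.990), a transcription factor of the Hedgehog pathway, Tshz2 (0.989) and Hoxb7 (0.988). Those of Peg3 were Mkx (0.983), a tendon homeobox factor, Entpd2 (0.983) and AW551984 (0.978), and those of Plagl1 were Kcns1 (0.966), Gm49394 (0.957), which shares 3596 exon bases with Igf2, and Fgfr2 (0.955). Meg3 was most like Cad (0.972), an enzyme of pyrimidine synthesis, Trim59 (0.964) and Gfra1 (0.963), and Rian was most like Shcbp1 (0.974), Gm29514 (0.965) and Trim59 (0.965). For H19 they were Masp1 (0.947), Slc6a2 (0.944) and Focad (0.944), for Dlk1 Olfr1388 (0.889), Rpp14 (0.886) and Dnph1 (0.883), and for Peg10 Lca5 (0.993), Sik3 (0.989) and Csnk1g3 (0.986).

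Mest and Cdkn1c were most like a gene of an imprinted cluster. Mest was most like Klf14 (0.948), then Ptn (0.937) and Prtg (0.924), and Cdkn1c was most like the antisense gene Gm44732 (0.986), whose exons overlap its own by 625 bases on the other strand, then Tnfrsf21 (0.924) and Klf14 (0.915). Klf14 was at or near 0 CPM in some tumours, as given above. Within these orders Meg3 had Rian at place 14, Plagl1 had Peg3 at place 10, Peg3 had Grb10 at place 18 and Plagl1 at place 26, Cdkn1c had Mest at place 19 and H19 had Igf2 at place 21. Other partners within the block stood lower: Grb10 had Peg3 at place 75, Plagl1 at 241, Mest at 2102, Cdkn1c at 2183 and H19 at 3536, and H19 had Grb10 at 847.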

How the data were processed

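Polyadenylated RNA of 10 tumours was sequenced, per the labels' protocols. The labels call the samples bulk tumour tissue, while the extraction protocol mentions sorted cells, and no batch, sex or date is named. The authors deposited 1 table of estimated counts for 55487 genes, of which 7.96% of values are not whole, and 1 file per tumour of values on a log2 scale for 25407 genes. The build was mm10, and HISAT2 2.2.1, RSEM 1.3.3, DESeq2 1.32.0, FastQC 0.11.9 and bcl2fastq 2.0 are named, per the submitters' processing notes. No source used here names the annotation release or says whether counting used strand. Such estimates divide ambiguous reads among genes, and overlapping genes can hold each other's reads.

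Rounded counts were used. Genes were kept by filterByExpr of edgeR 4.0.16 (minimum count 10), libraries were scaled by TMM, and the groups were compared with the quasi-likelihood F test, Benjamini-Hochberg adjusted at 0.05 over 16565 genes. CPM uses the scaled library sizes and log2 CPM a prior count of 2. The common biological coefficient of variation was 0.355, and every pair of libraries differed by more than counting error, with chi-square over degrees of freedom of at least 25.5 within a group and at least 13.2 over all pairs, the least between labelled-deleted tumour 4 and wild-type tumour 2. Correlations used 100000 random permutations over 10 tumours and all 362880 over 9. Alternatives were DESeq2 1.42.0, limma 3.58.1 (voom, and the deposited log2 values), other size factors, no low-count filter, blocks and each tumour left out. R was 4.3.3, Python 3.11.15, scipy 1.17.1 and matplotlib 3.10.9. Of 55487 gene IDs, 55141 matched GENCODE M21. The genes, lists and cluster pairs were chosen with earlier results of these data known. The text names the 10 genes, Igf2, Igf2r, Gnas and Grem1, the 3 genes of smallest p in each direction of the other imprinted lists, and for each of the 10 the 3 genes of mean CPM 1 or more with the highest correlation. Zim1, Usp29, Klf14 and the other cluster genes were added after their values were seen.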

Additional observations from a re-analysis of the deposited data

Results flagged for a closer look

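In each of 40 groups of 5 tumours, the gap of the highest or lowest tumour to its nearest neighbour was set against the group's whole range, with a critical value of 0.71. Of the 40 groups, 8 passed. The usual chance rate of about 1 in 20 assumes independent groups of normally distributed values. Here the gaps were taken on CPM and not on a log scale, and several genes moved together over the same tumours. That rate therefore cannot be used to judge the 8, which only mark tumours that stood apart in CPM. For H19, labelled-deleted tumour 4 stood apart at 1896 CPM. For Peg10 and for Rasgrf1, an exchange factor that activates Ras, it was labelled-deleted tumour 1, at 98.1 and 116 CPM. Wild-type tumour 3 stood apart on the high side for Rian at 162 CPM, Dlk1 at 80.1 CPM, Plagl1 at 142 CPM and Copg2 at 114 CPM. For Asb4 wild-type tumour 1 stood apart at 5.35 CPM.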

How the results depend on the processing

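No imprinted growth gene passed in any of 18 alternatives (lowest adjusted p 0.479, Peg10 with DESeq2), and DESeq2 called 7 genes of the table where edgeR called 0 (lowest edgeR adjusted p 0.759, 983 genes at an unadjusted p under 0.05, against 1509 with DESeq2). Of the single values, 25 changed sign, 4 lost their call and 344 did neither. H19, -0.09 on the log2 scale, was 0.31 with limma-voom, 0.41 with a block by tumour ID number, 0.21 on the deposited log2 values, 0.33 without labelled-deleted tumours 1 and 2 together (chosen after seeing the data), and -0.68 to 0.47 with 1 tumour left out. Dlk1, -0.74, was 0.72 with limma-voom, 0.84 with the ID block, 0.32 on the deposited log2 values and -1.04 to 1.06 with 1 tumour left out. With the ID block Peg3 was 0.00, Igf2 0.79, Gnas -0.03 and Peg10, 2.32 over all tumours, 0.31. Labelled-deleted tumours 1 and 4 are alone in their ID numbers, so the ID-block values do not draw on them for the group difference. Peg10 was 1.36 with limma-voom and 0.96 on the deposited log2 values. Without labelled-deleted tumours 1 and 2 together Rian was -0.07, Grb10 0.21, Igf2 0.07 and Grem1 -0.40. With 1 tumour left out, Plagl1 ran from -1.29 to 0.02 and Igf2 from -1.16 to 0.21, each positive without wild-type tumour 3, Grb10 from -0.59 to 0.01, positive without labelled-deleted tumour 1, Gnas from -0.01 to 0.11, Peg10 from 0.69 to 2.62, and Mest from -1.49 to -0.60. Of the 3 correlations with marker lists, 0 passed without labelled-deleted tumour 1. The cause was not tested.

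The labels do not say that replicate numbers pair the tumours, and deviations of same-numbered tumours correlated at 0.069, 0.107, 0.317, -0.016 and 0.387 for numbers 1 to 5, not above 0.1 for every number. Numbers 3 and 5, whose tumours also share a tumour ID number (38 and 40), correlated more with their own number than with any other (at most 0.252 and 0.218). With the replicate block 0 genes passed, 781 had an unadjusted p under 0.05, H19 was 0.38, Dlk1 0.83 and Peg10 1.28, and the 10 genes split 5 and 5 with a median of -0.18. Of the 10 genes the lowest raw count was 30 (Dlk1). The effect of depth was not tested.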

Other observations

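The ratio of Meg3 to Dlk1 CPM, genes read from opposite parental alleles of 1 cluster, was 22.7, 21.1, 32.7, 21.1 and 23.2 in labelled-deleted tumours, against 61.1, 15.5, 3.43, 118 and 63.4 in wild-type tumours. The labelled-deleted tumours lay inside the wild-type range, with a median of 22.7 in labelled-deleted tumours and 61.1 in wild-type tumours (exact two-sided permutation p = 0.73). The ratio of Igf2 to H19 CPM had a median of 0.60 in labelled-deleted tumours and 0.861 in wild-type tumours (exact two-sided permutation p = 0.651).

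Of the other imprinted genes, 5 had too few counts to be tested. Calcr, a calcitonin receptor gene near Peg10, reached at most 0.107 CPM in any tumour, and Slc22a3, Magel2, Nap1l5 and Sfmbt2 reached at most 2.22, 1.16, 1.14 and 3.56 CPM. Airn, the noncoding RNA that runs across Igf2r, was present at 3.05 to 6.94 CPM. Kcnq1ot1, the noncoding RNA of the Cdkn1c cluster, stood at 27.2 to 46.2 CPM over the 10 tumours, a narrow range beside that of Cdkn1c, 15.2 to 115 CPM. Dcn, which encodes the matrix proteoglycan decorin, averaged 546 ± 362 CPM in labelled-deleted tumours and 408 ± 91.9 CPM in wild-type tumours (SD, n = 5 each), with an edgeR log2 fold change of 0.42 (SE 0.42, adjusted p = 0.807).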
